A study of Rattus norvegicus with 12 samples.

Results

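Gene expression was compared between livers of rats given trichloroethylene (TCE) and livers of rats given the vehicle alone. The comparison used 6 of the study's 12 arrays: the 3 labelled as liver of treated rats and the 3 labelled as liver of control rats. The rats were male, 7 to 9 weeks old and 190 to 240 g, and the submitters call them Wistar-derived in one place and F-344 in another. Treated rats received TCE by mouth at 16 mg/kg per day for 3 days in corn oil (5 ml/kg), and controls received corn oil by the same route. All were killed 24 h after the last dose, and about 50 mg of liver was taken, so that each array stands for 1 rat. Renal cortex from the same rats filled the other 6 arrays. Each gene was represented by its brightest probe set with 1 gene symbol, and 10552 of 14217 genes were bright enough in liver to be tested. Values are log2 levels as deposited, a difference is TCE minus control, and its error is limma's standard error (SE, n = 3 against 3).

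TCE is a chlorinated solvent that the liver oxidises, chiefly through Cyp2e1, to chloral and then to trichloroethanol and trichloroacetic acid, with dichloroacetic acid as a minor product. Trichloroacetic and dichloroacetic acid can act on the nuclear receptor PPAR-alpha in rodent liver, and dichloroacetic acid inhibits pyruvate dehydrogenase kinases. A smaller share is conjugated with glutathione and processed further in the kidney. The study was set up around the formic acid that treated rats excrete and the vitamin B12-dependent step of methionine metabolism. Hepatocytes make up most of liver RNA, with smaller parts from Kupffer cells, sinusoidal endothelium, stellate cells, bile duct cells and blood.

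The 6 arrays were close to each other but not alike in their control probe sets. Within the TCE group they correlated across probe sets at 0.9942 to 0.9949, within the control group at 0.9926 to 0.995, and between the groups at 0.9914 to 0.9941. The control livers were thus spread over values that overlap those between the groups. All 13 hepatocyte markers on the array were above the 60th percentile of probe sets, and albumin (Alb) read 16.28 to 16.38 in every liver. On liver control replicate 1 all 24 probe sets for the poly-A spike-in controls, bacterial transcripts added to the RNA before labelling, lay below the other 5 liver arrays. The shortfall on that array ranged from -1.37 to -3.66, with a median of -2.03, while its hybridisation controls averaged 11.93 against 12.01 to 12.25 on the others. Where a gene list is described by counts, the range of those counts over 6 fits, each without 1 of the 6 liver arrays, follows.

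The array also carries probe sets for the 3', middle and 5' parts of Gapdh and Actb, and the gap between the 3' and the 5' set is a usual sign of RNA integrity and labelling length. The Gapdh gap was 1.70, 1.56 and 1.21 in TCE livers and 0.78, 0.80 and 0.86 in control livers. The groups did not overlap, with a mean difference of 0.68 and a two-sided exact permutation p of 0.1, which is the lowest value 3 against 3 arrays can reach. The 5' set differed by -0.80 between TCE and control, and the 3' set by -0.13. For Actb the gap was 5.67, 5.09 and 5.22 in TCE and 5.24, 4.31 and 4.36 in control livers, a difference of 0.69 with overlapping groups (exact permutation p = 0.3). The same gap in 2 of the poly-A spike-in controls stood apart on liver control replicate 1 only. For Dap it was 0.85, 0.94 and 0.90 in TCE and 2.51, 0.96 and 0.92 in control livers. For Thr it was 1.04, 0.98 and 0.93 against 1.91, 1.05 and 0.87. How the labelling of that array bears on its Gapdh gap was not tested. In renal cortex the Gapdh gap stood the other way, by -0.32 (exact permutation p = 0.2).

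**Figure D1:**
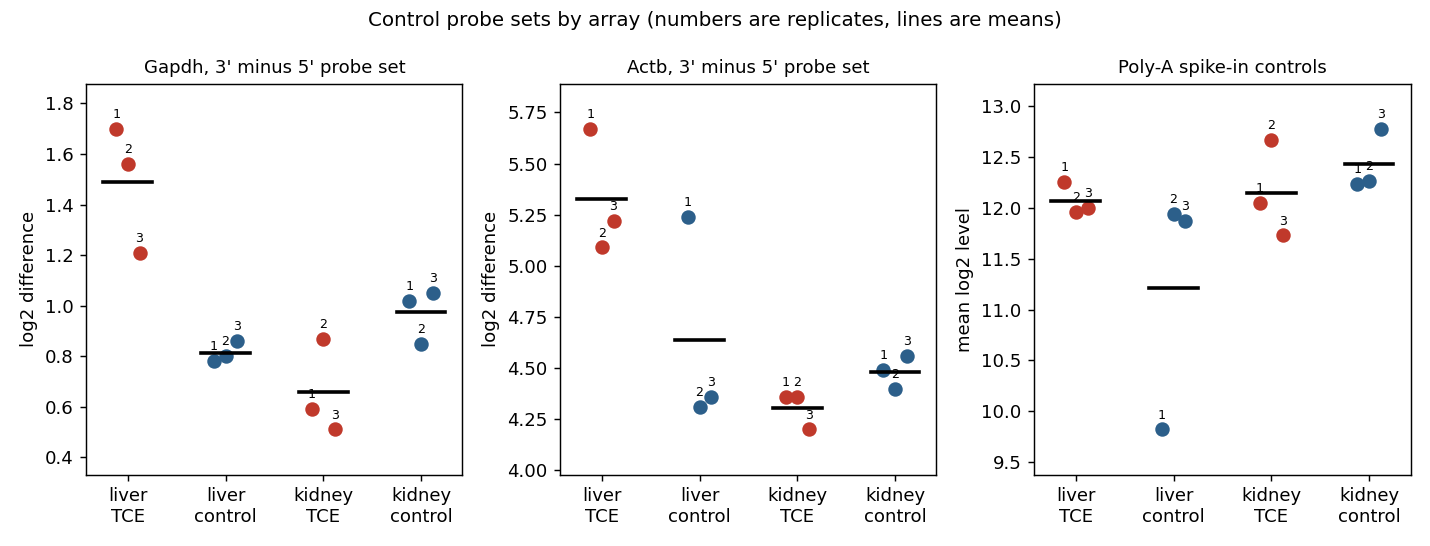
Control probe sets on each of the 12 arrays: the 3' minus 5' gap of Gapdh and of Actb (log2 difference) and the mean log2 level of the poly-A spike-in controls. Points are arrays numbered by replicate and lines are group means; the 3 TCE livers lie at 1.21 to 1.70 for Gapdh against 0.78 to 0.86 in control livers, and liver control replicate 1 lies at 9.82 for the spike-in controls.

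No gene passed limma's adjusted p of 0.05 in liver (0 of 10552, 0.0%). Before adjustment, 1546 genes (14.7%) had a limma p under 0.05, of which 930 were higher in TCE (8.81%) and 616 lower (5.84%). Without liver control replicate 1 the unadjusted count was 1315. Over the fits that each left out 1 array, higher genes numbered 654 to 898 and lower genes 457 to 629. The groups did not overlap for 2167 genes (20.5%), with TCE above control for 12.2% and below for 8.31%. Across all genes tested the median difference was 0.034, and 57.0% of genes were higher in TCE. The genes that follow are therefore described by their levels and errors, beside these shares, and none is called changed. Because a liver piece holds many cell types, fewer cells of a type and less RNA per cell cannot be told apart.

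Genes outside the clock and lipogenic lists were taken in each direction by size of difference, 15 among those with an unadjusted p under 0.05, no overlap between groups and a level above the 60th percentile. Their lack of overlap is thus part of the choice. The 2 with the highest positive differences were metallothioneins. Mt1 and Mt2A encode small cysteine-rich proteins that bind zinc and copper, and both are known to respond to metals and glucocorticoids. Mt1 read 7.08, 7.00 and 6.32 in TCE livers and 5.78, 5.20 and 4.94 in control livers. All 3 treated values were above all 3 controls, by 1.50 ± 0.30 (SE) or 2.82-fold, with a limma adjusted p of 0.177. Mt2A read 10.50, 10.79 and 10.79 in TCE and 10.44, 8.18 and 7.52 in control livers, a difference of 1.98 ± 0.76 (SE; limma adjusted p = 0.332). The treated livers were alike in Mt2A, and the controls spread widely, with liver control replicate 1 close to the treated level. Without that array the differences were 2.84 for Mt2A and 1.73 for Mt1. Probe sets for close relatives, such as metallothioneins, globins or Sult2a enzymes, may bind more than 1 family member, which was not tested.

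The 250 bases before the start of each metallothionein gene are shown because metal-response elements, the sites of the zinc-sensing factor Mtf1, are known to lie there. The sequences are RefSeq's for rat assembly GRCr8, read 5′ to 3′ on the strand of the gene. Mt1 is at chr19:10832976-10833225 and Mt2A at chr19:10838709-10838958, both on the minus strand. Capitals mark matches to the core of the element, TGCACNC or TGCGCNC on either strand.
Mt1: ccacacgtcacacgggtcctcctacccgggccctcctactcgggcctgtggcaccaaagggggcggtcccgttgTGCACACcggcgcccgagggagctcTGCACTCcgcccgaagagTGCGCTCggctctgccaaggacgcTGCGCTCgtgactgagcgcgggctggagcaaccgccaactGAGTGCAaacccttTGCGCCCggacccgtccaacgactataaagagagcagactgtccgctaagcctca
Mt2A: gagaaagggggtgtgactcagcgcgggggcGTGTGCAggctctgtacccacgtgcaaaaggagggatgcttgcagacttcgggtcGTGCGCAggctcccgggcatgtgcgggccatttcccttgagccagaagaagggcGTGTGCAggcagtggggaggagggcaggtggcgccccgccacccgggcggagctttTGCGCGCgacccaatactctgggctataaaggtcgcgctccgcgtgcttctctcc
The Mt1 window held 6 matches, 3 of each core, and the Mt2A window 4, 2 of each. Of 33469 promoter windows of the same length in the table, 20.6% held at least 1 match, 0.266% at least 4 and 0.0269% at least 6. A match is a stretch of letters and was not tested for binding here.

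The list of metallothionein and zinc genes held 16 tested members, with a median of 0.042, near that of all genes. At an unadjusted p under 0.05, 4 were higher and 1 lower, and the 4 were Mt1 and Mt2A themselves, picked above for their size, with Mtf1 and Slc39a7. The higher count was 1 to 3 with 1 array left out, at 1 without liver TCE replicate 1 or control replicate 3, and the lower count 1 to 2. Slc39a4, a zinc importer of the cell surface, read 9.86, 9.78 and 9.81 in TCE and 10.28, 10.55 and 10.44 in control livers. Its levels did not overlap and differed by -0.60 ± 0.09 (limma adjusted p = 0.126). Slc39a7, which releases zinc from the endoplasmic reticulum, differed by 0.24 ± 0.07, and Mtf1 itself by 0.32, or -0.08 with the Gapdh gap as a covariate.

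Among the other genes with the largest positive differences, several encode secreted liver proteins or enzymes of hormone and sugar metabolism. Hsd17b2, which oxidises estradiol and testosterone to their less active forms, read 12.44, 12.50 and 12.59 in TCE and 10.41, 11.24 and 11.71 in control livers. The treated livers were tightly grouped above all controls, by 1.39 ± 0.33 (limma adjusted p = 0.212). Serpina7, the thyroxine-binding globulin of plasma, read 7.00, 8.27 and 8.36 against 5.92, 6.66 and 6.65. Its difference was 1.46 ± 0.44, with TCE replicate 1 nearest the controls. Tsku, a leucine-rich protein that hepatocytes secrete, read 11.65, 12.12 and 11.58 against 10.69, 10.18 and 10.90, a difference of 1.19 ± 0.24 (limma adjusted p = 0.177). St6galnac4, a sialyltransferase of the Golgi, differed by 1.04 ± 0.25, and Uap1l1, a relative of the enzyme that makes UDP-N-acetylglucosamine, by 1.01 ± 0.26.

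The remaining positive differences by the same rule ranged from 0.86 to 1.27. They were Banp, a DNA-binding protein (1.27 ± 0.32), Dcn, the matrix proteoglycan decorin (1.23 ± 0.38), S100a9, a neutrophil calcium-binding protein (0.98 ± 0.29), Amigo3, an adhesion protein (0.95 ± 0.30), and Madd, an activator of Rab GTPases (0.94 ± 0.18, with -0.10 from another probe set). Dlgap4 (0.89 ± 0.12), Spetex2l2 (0.88 ± 0.23) and Pprc1, a coactivator related to PGC-1 (0.86 ± 0.34), completed the 15. Pprc1 differed by 0.57 without liver TCE replicate 2. Dlgap4 had the smallest adjusted p of the 15, at 0.126 in limma, and its TCE livers read 6.54, 6.66 and 6.51 against 5.79, 5.81 and 5.43.

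**Figure D2:**
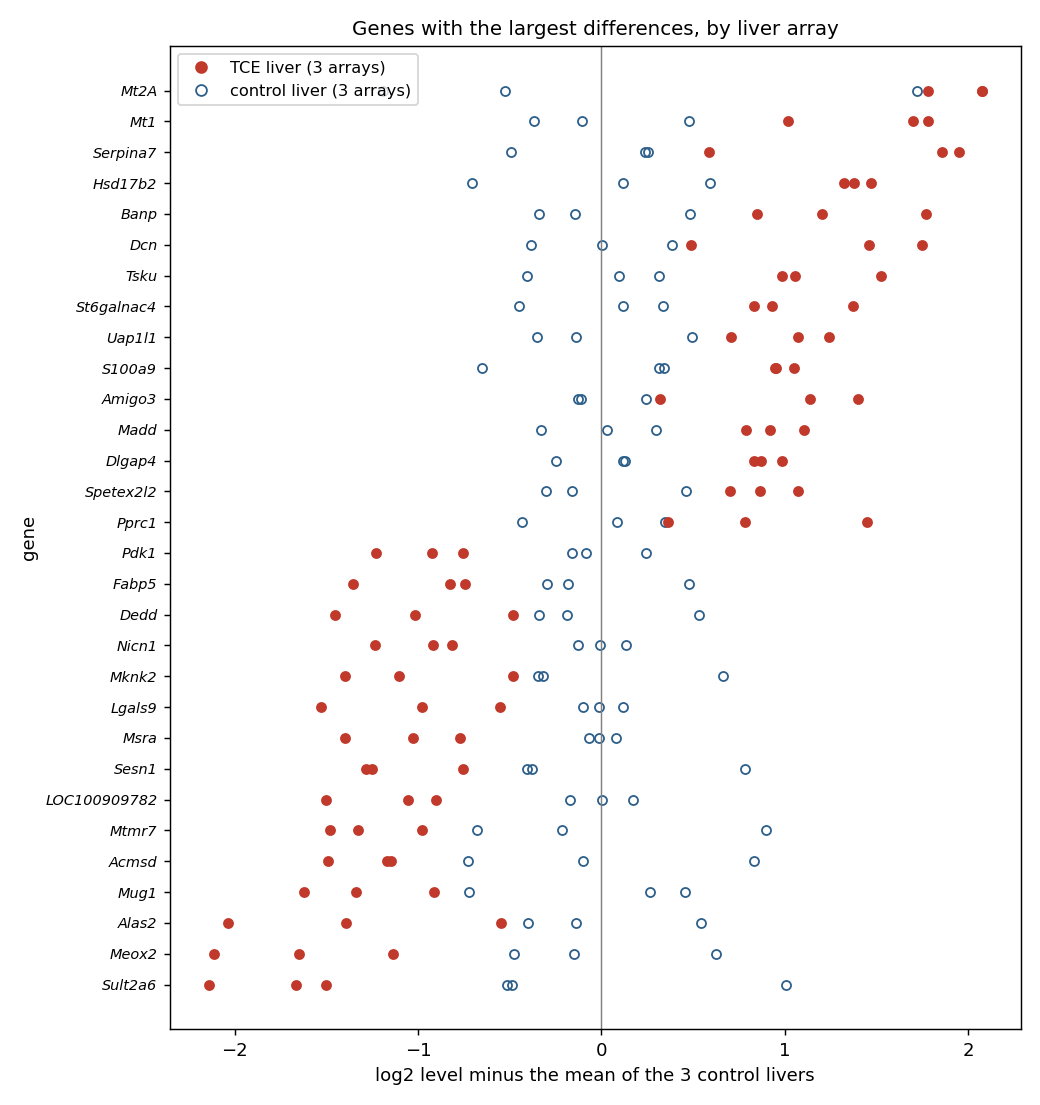
Log2 level of each liver array minus the mean of the 3 control livers, for the 15 genes in each direction with the largest differences outside clock and lipogenic genes, chosen for groups that do not overlap. Filled points are the 3 TCE livers and open points the 3 control livers; for Mt2A 1 control liver lies next to the TCE livers.

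The largest negative differences included enzymes and plasma proteins of hepatocytes. Sult2a6, a sulfotransferase of bile acids and steroids, read 8.58, 8.74 and 8.10 in TCE and 9.75, 9.72 and 11.25 in control livers, a difference of -1.77 ± 0.47 (limma adjusted p = 0.238). Control replicate 3 was the highest and the groups did not overlap. Mug1, a murinoglobulin that traps proteases in rat plasma, read 9.39, 9.67 and 10.10 against 10.29, 11.47 and 11.28 (-1.29 ± 0.36). Acmsd, which steers tryptophan breakdown away from NAD synthesis, read 6.49, 6.51 and 6.16 against 8.49, 7.56 and 6.93 (-1.27 ± 0.40). Fabp5, a fatty acid carrier, read 11.10, 11.19 and 10.58 against 12.41, 11.75 and 11.63 (-0.98 ± 0.27). In all of these the 3 treated livers lay below every control.

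Meox2, a homeobox factor, read 6.33, 6.79 and 7.31 in TCE and 9.07, 8.30 and 7.97 in control livers, a difference of -1.63 ± 0.37. Msra, which repairs oxidised methionine in proteins, read 7.86, 8.23 and 8.49 against 9.34, 9.25 and 9.19, and its controls were tightly grouped (-1.07 ± 0.17; limma adjusted p = 0.138). Nicn1 differed by -0.99 ± 0.14, but 2 other probe sets of the gene gave 0.21 and 0.17. Lgals9, the lectin galectin-9, differed by -1.02 ± 0.25, Dedd, a death-effector protein, by -0.98 ± 0.34, and the uncharacterised LOC100909782 by -1.15 ± 0.18. Liver control replicate 1 weighed on several of the 15. Without it Mtmr7, a phosphoinositide phosphatase, went from -1.26 to -0.82 and Sesn1, a stress-responsive sestrin, from -1.09 to -0.70. Mknk2, a kinase of the translation factor eIF4E, went from -0.99 to -0.66. Acmsd went from -1.27 to -0.86, Meox2 from -1.63 to -1.32, Dedd from -0.98 to -0.72 and Fabp5 from -0.98 to -0.74. Sult2a6 (-2.01), Mug1 (-1.65), Alas2 (-1.40) and Lgals9 (-1.03) moved further from 0.

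The pyruvate dehydrogenase kinases, which switch off entry of pyruvate into the citric acid cycle, were lower in TCE livers for all 3 members named here. Pdk1 read 9.36, 9.67 and 9.84 in TCE and 10.84, 10.51 and 10.44 in control livers, a difference of -0.97 ± 0.17 (limma adjusted p = 0.144). Pdk2 read 11.28, 11.44 and 11.14 against 11.87, 11.63 and 11.68 (-0.44 ± 0.11; limma adjusted p = 0.231). Pdk4, the member induced by fasting and by PPAR-alpha, read 10.66, 10.01 and 10.59 against 11.05, 11.62 and 11.19 (-0.86 ± 0.24; limma adjusted p = 0.244). None of the 3 overlapped between groups, and further probe sets gave -0.65, -0.94 and -2.28 in the same order. Pdk1 was chosen for groups that do not overlap and Pdk2 for a small p in this fit. Their lack of overlap thus largely follows from the choice, while Pdk4 was also named in advance among a preset of enzymes. Leaving out liver control replicate 1 gave -0.85, -0.37 and -0.98.

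These kinases sit in a list of 33 genes of the fasting and insulin response, of which 28 were lower and 5 higher in TCE. At an unadjusted p under 0.05, 7 were lower and 0 higher, against 5.84% and 8.81% of all genes, and 5 to 7 were lower and 0 to 1 higher with 1 array left out. The list's median was -0.212, but -0.033 without liver control replicate 1, which was the highest liver for several members. Ppargc1a, a coactivator of gluconeogenesis, read 6.99 on that array against 3.24 and 5.61 in the other controls and 3.21 to 3.62 in TCE livers. Igfbp1, an insulin-suppressed binding protein, read 10.51 there and 7.75 to 8.48 on all other liver arrays; its difference of -0.60 became 0.30 without it. Pygl, liver glycogen phosphorylase, differed by -0.24 ± 0.07 and Gcgr, the glucagon receptor, by -0.21 ± 0.08, both without overlap between the groups, and Gcgr stood at 0.03 with the Gapdh gap as a covariate.

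Cyp2e1, the main oxidase of TCE, had overlapping levels in both groups. It read 14.89, 15.01 and 15.13 in TCE and 15.06, 14.98 and 15.09 in control livers, a difference of -0.03 ± 0.08 (limma adjusted p = 0.895). Among enzymes of its products, Gstz1, which breaks down dichloroacetic acid, differed by -0.17 ± 0.11 (-0.08 without liver control replicate 1), Aldh2, the mitochondrial aldehyde dehydrogenase, by 0.05 ± 0.09 and Adh1c, an alcohol dehydrogenase, by -0.25 ± 0.16. Of 26 genes on the list of TCE metabolism, 11 were higher and 15 lower, with 1 in each direction at an unadjusted p under 0.05. The lower one was Acy3, a deacetylase of mercapturates (-0.48 ± 0.16), and the higher one was Grhpr, which reduces glyoxylate (0.21 ± 0.08). With 1 array left out 0 to 2 were higher and 1 to 3 lower, the 0 and 3 without liver control replicate 1. The list's median was -0.039.

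The list of cytochrome P450 genes of families 1 to 3, which also holds Por, Cyb5a and Cyb5r3, had 30 members tested. At that threshold 10.0% of them passed in either direction, against 14.7% of all genes, with 3 lower and 0 higher. This balance moved with single arrays: it was 2 lower and 2 higher without liver control replicate 1, 1 lower and 2 higher without liver TCE replicate 3, and 4 lower and 0 higher with TCE replicate 2 left out. Cyp2c22 read 14.52, 14.65 and 14.49 in TCE and 15.27, 15.07 and 15.05 in control livers, apart from each other by -0.58 ± 0.09 (limma adjusted p = 0.132). Cyp2f4 differed by -0.29 ± 0.09 and Cyp2c7, a P450 of steroid and retinoid metabolism, by -0.22 ± 0.08. The male-specific Cyp2c11 differed by -0.08 ± 0.06, Cyp1a2 by -0.08 ± 0.08 and Cyp3a2 by 0.39 ± 0.18, and without liver control replicate 1 the last was 0.20. Conjugation enzymes had a median of -0.068 over 38 genes, with Sult2a6 as the 1 member at an unadjusted p under 0.05. With 1 array left out 1 to 4 were lower and 0 to 1 higher, the 4 without liver control replicate 3.

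Targets of PPAR-alpha showed no shared direction, with 14 of 28 higher, 14 lower and a median of 0.001. Cyp4a1, a fatty acid hydroxylase used as a marker of PPAR-alpha activity, read 12.74, 12.15 and 11.64 in TCE and 12.42, 12.00 and 11.85 in control livers, with full overlap (0.09 ± 0.31). The 2 members at an unadjusted p under 0.05 were both lower: Pdk4, above, and Cd36, a fatty acid receptor (-0.65 ± 0.24), whose groups overlapped. Lower members numbered 1 without liver TCE replicate 1 or 2, and higher ones 0 to 1 with 1 array left out. Targets of the oxidative stress factor Nrf2 were mixed as well, with 3 of 27 higher and 2 lower at that threshold. The balance was 1 higher and 4 lower without liver control replicate 1, with a median of -0.025 in place of 0.018, and 4 higher and 1 lower without liver control replicate 2. Without liver control replicate 3 it was 1 higher and 1 lower. Pgd, of the pentose phosphate pathway, differed by -0.83 ± 0.25 and Gclc, the first enzyme of glutathione synthesis, by -0.39 ± 0.14. Nqo1 differed by -0.27 ± 0.26 and Hmox1 by 0.15 ± 0.27, both with overlapping groups. Mafg, a small partner of Nrf2, read 7.82 to 7.96 in TCE and 7.02 to 7.06 in control livers, while another probe set of it differed by -0.10.

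Genes of bile acid synthesis and transport leaned upward, with 21 of 30 higher and a median of 0.069. The median of the list ranged from 0.060 to 0.129 with 1 array left out, at 0.111 without liver control replicate 1 and 0.129 without liver TCE replicate 3. At an unadjusted p under 0.05 there were 4 higher and 0 lower, or 13.3% of the list against 14.7% of all genes in either direction. All genes were higher at that threshold for 8.81%. The list's higher count was 1 without liver TCE replicate 2 or control replicate 3 and 2 without liver TCE replicate 1 or 3. Cyp8b1, which directs synthesis toward cholic acid, read 12.58, 12.90 and 13.03 in TCE and 11.79, 12.49 and 11.99 in control livers (0.75 ± 0.22; limma adjusted p = 0.265). Atp8b1, a flippase of the canalicular membrane, differed by 0.36 ± 0.10 and Slc27a5, which activates bile acids for conjugation, by 0.22 ± 0.07. Cyp7a1, the rate-limiting enzyme of the pathway, read 11.45, 12.64 and 11.62 against 12.39, 9.70 and 11.22. Its groups overlapped, at 0.81 ± 0.74, and the difference was 1.45 without liver control replicate 1, 0.10 without control replicate 2 and 0.44 without TCE replicate 2.

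Secreted proteins of the liver differed in both directions. Of 38 complement and coagulation genes, 5 were higher and 3 lower at an unadjusted p under 0.05, and 4 to 5 higher and 2 to 4 lower with 1 array left out. Mbl1, a mannose-binding lectin, read 11.25, 11.45 and 11.65 in TCE and 11.98, 11.97 and 12.08 in control livers (-0.56 ± 0.11; limma adjusted p = 0.180). Klkb1, plasma prekallikrein, read 13.21, 13.05 and 13.05 against 12.75, 12.80 and 12.77 (0.33 ± 0.07). Masp1, a protease of the lectin pathway, differed by 0.36 ± 0.09, with -0.35 and -0.24 from 2 other probe sets. Among acute phase genes, Crp differed by -0.61 ± 0.14 and Cd14 by -0.49 ± 0.16, each without overlap, and the list's median was -0.001.

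Amino acid catabolism leaned downward, with 37 of 50 genes lower, and 26.0% of the list higher against 57.0% of all genes. At an unadjusted p under 0.05, 5 were lower and 1 higher. That is 12.0% of the list against 14.7% of all genes in either direction, while 5.84% of all genes were lower at that threshold. Qdpr, which regenerates tetrahydrobiopterin, read 12.28, 12.39 and 12.47 in TCE and 12.94, 12.84 and 12.81 in control livers (-0.48 ± 0.08; limma adjusted p = 0.138). Afmid, of the kynurenine pathway, differed by -0.50 ± 0.10 and Aldh4a1, of proline breakdown, by -0.29 ± 0.07. The lower count ranged from 3 without any 1 of the TCE arrays to 8 without liver control replicate 3, and the higher count from 0 to 1. The list's median was -0.072, and -0.006 without liver control replicate 1. In the urea cycle Asl, argininosuccinate lyase, went the other way, at 12.36, 12.52 and 12.49 against 12.02, 11.86 and 12.02 (0.49 ± 0.08). Gldc, of the glycine cleavage system, read 8.87, 8.73 and 8.73 against 9.62, 9.35 and 9.59 (-0.74 ± 0.10; limma adjusted p = 0.126), with 0.28 from another, dimmer probe set.

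Markers of the central end of the liver lobule had a median close to the 0.034 of all genes, and those of the portal end a lower one. Of 20 periportal genes 14 were lower, with a median of -0.063, and of 18 pericentral genes 9 were lower, with a median of 0.033. At an unadjusted p under 0.05, 3 periportal genes were lower and 1 higher, against 5.84% and 8.81% of all genes. In the pericentral list 1 was lower and 1 higher. With 1 array left out, 2 to 4 periportal genes were lower and 1 higher, and 0 to 2 pericentral genes were lower and 1 to 4 higher. Glul, glutamine synthetase of the innermost pericentral cells, differed by 0.21 ± 0.12, with 0.03 and -0.66 from other probe sets. Rgn, the calcium-binding protein regucalcin, differed by 0.25 ± 0.07, and Hsd17b13, a lipid droplet enzyme, by -0.47 ± 0.11.

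Nuclear genes for the respiratory chain and for splicing stood at opposite sides of the all-gene median. Of 69 respiratory chain and ATP synthase genes, 51 were lower, and 21 of these had groups that did not overlap, against 0 higher ones without overlap. In either direction groups did not overlap for 30.4% of the list and 20.5% of all genes, and 8.31% of all genes were lower without overlap. At an unadjusted p under 0.05, 10 were lower and 0 higher. That is 14.5% of the list against 14.7% of all genes in either direction, while 5.84% of all genes were lower at that threshold. The lower count was 5 without liver control replicate 1 or 2, 6 without liver TCE replicate 1 and 17 without liver control replicate 3. The higher count was 0 to 1. The list's median was small, at -0.082, and -0.060 without liver control replicate 1. Sdhc, a membrane anchor of complex II, read 11.89, 12.03 and 11.95 in TCE and 12.50, 12.34 and 12.32 in control livers (-0.43 ± 0.08; limma adjusted p = 0.156). Of 77 mitochondrial ribosomal proteins 44 were lower, with Mrpl46 (-0.43 ± 0.08) and Mrpl17 (-0.40 ± 0.09) having the smallest p. Among 40 cytosolic ribosomal proteins 3 were higher and 3 lower at an unadjusted p under 0.05, and with 1 array left out 2 to 3 were lower and 0 (without liver TCE replicate 1 or control replicate 1) to 5 (without liver TCE replicate 3) higher.

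Splicing factors were higher for 44 of 61 genes, 9 of them at an unadjusted p under 0.05 against 2 lower, with a median of 0.087. All genes were higher at that threshold for 8.81%. The count of 9 was 4 without liver TCE replicate 3, 5 without liver TCE replicate 1 or 2 or control replicate 1 or 2, and 6 without control replicate 3. Rbm3, a cold-inducible RNA-binding protein, read 9.92, 9.75 and 9.50 in TCE and 9.27, 9.15 and 9.39 in control livers (0.45 ± 0.13). Luc7l3, of the U1 particle, differed by 0.35 ± 0.09, with -0.50 and 0.29 from other probe sets, and Sf1, the branch point binder, by 0.43 ± 0.12, with -0.16 from another. Proteasome genes were higher for 28 of 40, beside 57.0% of all genes, and the list's median was 0.056. At the same threshold 5 were higher and 0 lower. That is 12.5% of the list against 14.7% of all genes in either direction, while 8.81% of all genes were higher. The list's higher count fell to 1 without liver TCE replicate 2 or 3, 2 without control replicate 1, and 3 without any 1 of the other arrays. Psmb5, a catalytic subunit, read 12.12, 12.17 and 12.14 against 11.89, 12.03 and 11.87 (0.21 ± 0.07). For Psmd7, of the regulatory particle, the difference was 0.17 ± 0.05, with -0.08 from another probe set.

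Genes of protein folding were split. In the unfolded protein response 5 of 34 were higher and 1 lower at an unadjusted p under 0.05, and 4 to 6 higher and 1 to 2 lower with 1 array left out. Creld2, an endoplasmic reticulum stress gene, read 10.88, 10.99 and 11.48 in TCE and 10.27, 10.23 and 10.57 in control livers (0.76 ± 0.19). Ddit3, the stress factor CHOP, differed by 0.40 ± 0.09. Pdia6, a disulfide isomerase, read 12.50, 12.51 and 12.50 against 12.87, 12.95 and 13.10, a difference of -0.47 ± 0.08 (limma adjusted p = 0.138). In the cytosol Dnajb1, a cochaperone induced by heat shock, differed by 0.55 ± 0.13, whereas the mitochondrial chaperone Hspd1 differed by -0.25 ± 0.07.

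**Figure D3:**
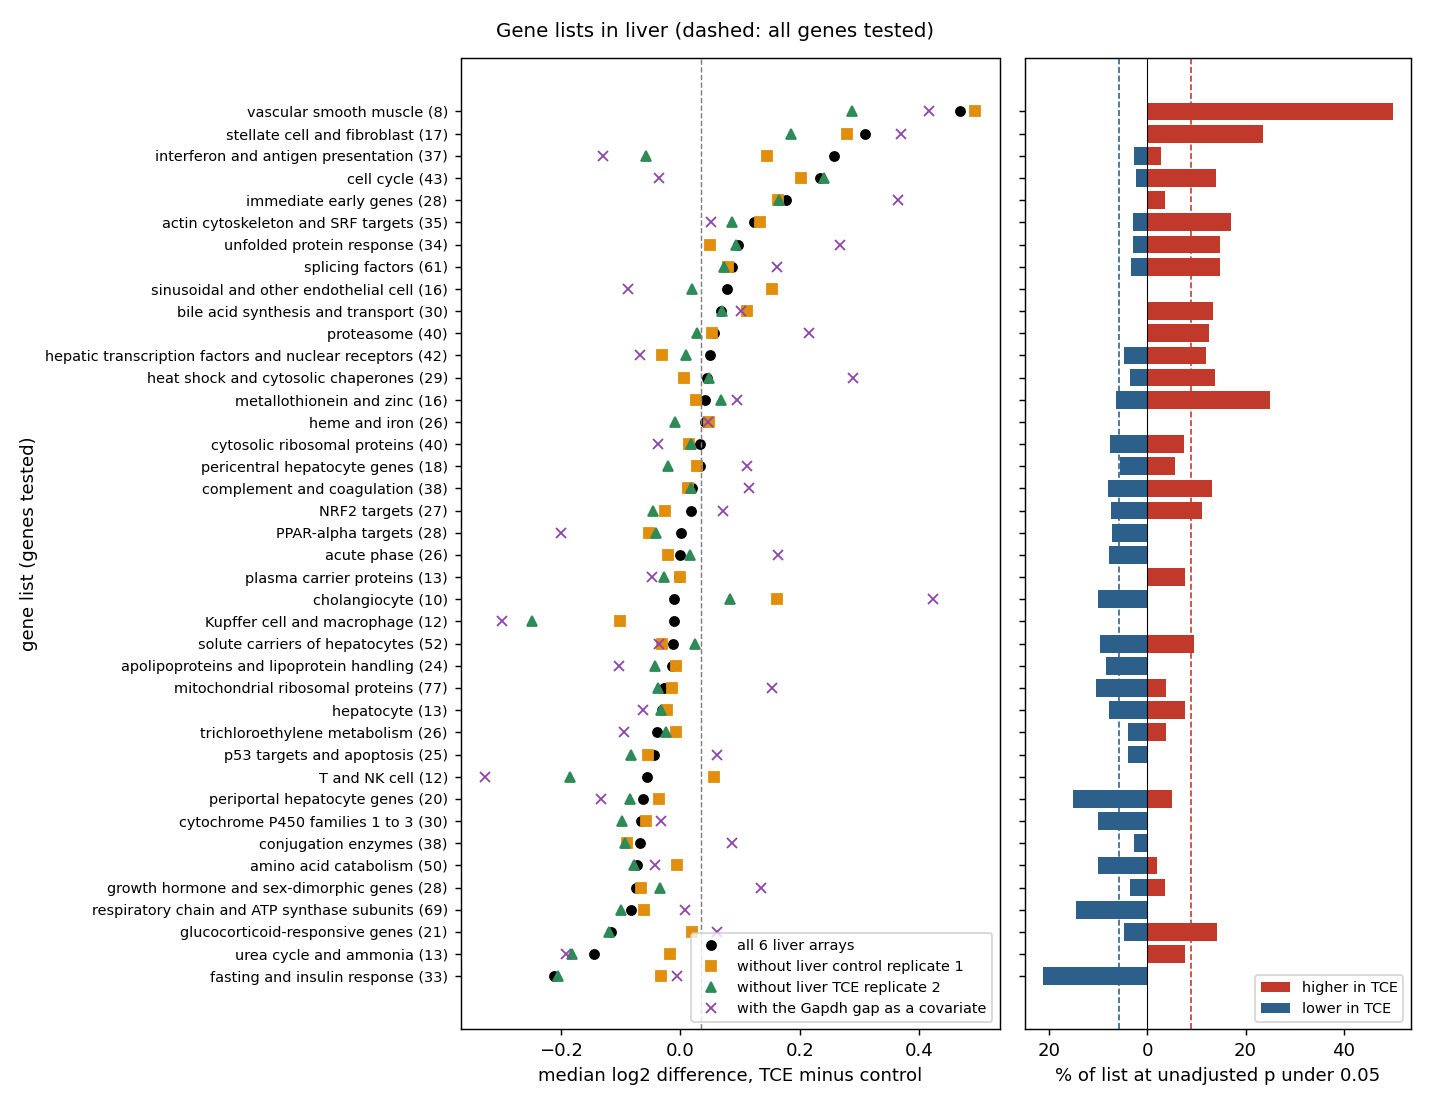
Left, median log2 difference (TCE minus control) of each list with at least 8 genes tested, with all 6 liver arrays, without liver control replicate 1, without liver TCE replicate 2 and with the Gapdh gap as a covariate. Right, percent of each list higher or lower at an unadjusted p under 0.05; dashed lines mark all genes tested, at a median of 0.034, 8.81% higher and 5.84% lower.

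Interferon-inducible and antigen presentation genes were higher for 32 of 37 members, with a median of 0.258, but 1 treated liver carried this. The median over the list, relative to the control mean, was -0.02, 0.95 and -0.03 in TCE replicates 1 to 3 and -0.22, 0.00 and 0.16 in the controls. Without liver TCE replicate 2 the list's median was -0.058. With all arrays 1 gene was higher and 1 lower at an unadjusted p under 0.05. With 1 array left out 0 to 3 were higher and 0 to 1 lower, the 3 without liver TCE replicate 3. The higher gene with all arrays, Cxcl11, was highest in TCE replicate 3 instead. It read 10.42, 10.55 and 10.66 in TCE and 10.04, 10.22 and 10.35 in control livers (0.34 ± 0.11). Isg15, a ubiquitin-like protein, read 8.37, 9.50 and 8.05 in TCE and 7.33, 8.03 and 7.68 in control livers (0.96 ± 0.42). Irf7, a master regulator of the response, read 8.41, 9.44 and 8.18 against 7.83, 8.11 and 8.30. Without liver TCE replicate 2 the differences were 0.53 for Isg15 and 0.22 for Irf7, and Irf7 stood at -0.19 with the Gapdh gap as a covariate. Rsad2, an antiviral enzyme, went the other way, at 7.33, 8.25 and 7.33 against 8.26, 8.27 and 8.71 (-0.78 ± 0.30).

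Markers of several blood and lining cells were high in the same liver. For Kupffer cells and macrophages the medians by array were -0.35, 0.58 and -0.22 in TCE and -0.04, -0.12 and 0.13 in control livers, with 12 of 12 markers above the 60th percentile. Their summed levels ranged from 111.5 to 123.1 in TCE and from 114.9 to 118.2 in control livers. For T and NK cells the medians were -0.19, 0.40 and -0.15 against -0.01, -0.03 and 0.00, but 5 of 17 markers (Cd2, Cd3d, Cd4, Cd5 and Cd8b) sat at the lowest value in every liver. Sinusoidal endothelial markers gave 0.00, 0.36 and -0.03 against 0.19, -0.20 and 0.02. In these 3 lists limma gave 0 genes higher or lower at an unadjusted p under 0.05. Without liver TCE replicate 2, 4 of the 12 macrophage genes were lower, with a median of -0.248, and 1 T and NK cell gene was lower. That list also had 1 lower gene without liver control replicate 1 and 1 higher gene without liver TCE replicate 3. In the endothelial list 2 genes were higher without liver TCE replicate 3 and 1 lower without liver control replicate 1. The part of these cells in the interferon values was not tested.

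**Figure D4:**
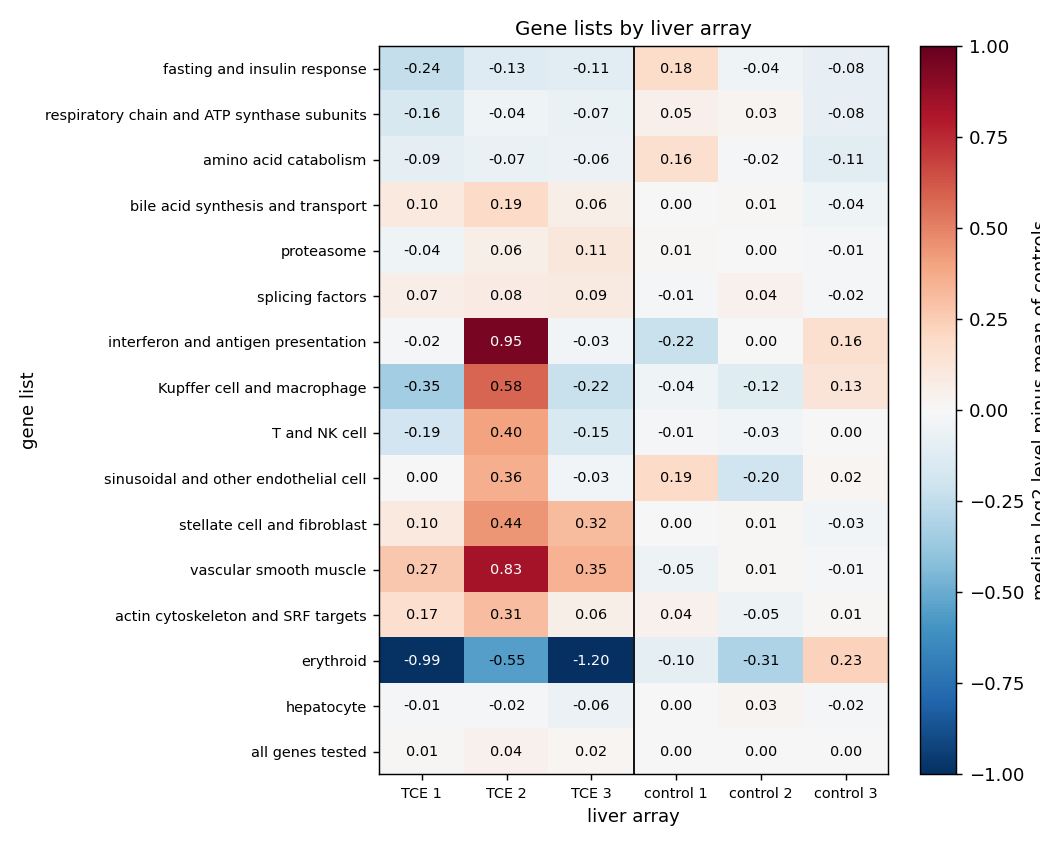
Median over the genes of a list of the log2 level on each liver array minus the mean of the 3 control livers, with colours from -1 to 1. TCE replicate 2 stands at 0.95 for interferon genes and 0.58 for macrophage markers, while erythroid markers are negative in all 3 TCE livers.

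Most stellate cell, fibroblast and smooth muscle markers had higher values in TCE livers. Of 17 stellate and fibroblast genes 15 were higher, 4 of them at an unadjusted p under 0.05 and 0 lower, with a median of 0.309. By array the medians were 0.10, 0.44 and 0.32 in TCE and 0.00, 0.01 and -0.03 in control livers, and the summed levels were 118.4 to 127.1 against 116.3 to 117.6. Reln, a secreted glycoprotein of stellate cells, read 10.44, 10.37 and 10.39 against 9.83, 10.06 and 9.90 (0.47 ± 0.08; limma adjusted p = 0.144). Decorin (Dcn) read 6.92, 8.19 and 7.90 against 6.82, 6.44 and 6.05, with TCE replicate 1 at the edge of the controls. Ecm1, a matrix protein, differed by 0.31 ± 0.06. Without liver TCE replicate 2 the list's median was 0.185. The count of 4 was 2 without liver TCE replicate 2 or 3 or control replicate 3, and 6 without liver TCE replicate 1.

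In the smooth muscle list 4 of 8 genes were higher and 0 lower at the same threshold, and 3 to 4 were higher with 1 array left out. The medians by array were 0.27, 0.83 and 0.35 in TCE and -0.05, 0.01 and -0.01 in control livers, so TCE replicate 2 was again the highest. The list's median was 0.469, and 0.288 without that liver. Tpm2, a tropomyosin, read 5.33, 6.38 and 5.28 in TCE and 3.76, 3.84 and 4.50 in control livers (1.63 ± 0.37). Myh11, the smooth muscle myosin, was dim, at 2.91, 3.35 and 3.30 against 2.36, 2.17 and 2.22 (0.94 ± 0.14). Acta2, smooth muscle actin, was near the lowest value everywhere (2.53 to 2.84) and differed by -0.13 ± 0.09, and Lmod1 and Notch3 sat at the lowest value in every liver. The summed levels of the list were 55.7 to 58.7 in TCE and 51.8 to 52.9 in control livers. Krt18, a keratin of hepatocytes on the list of actin and serum response factor genes, read 12.79, 12.70 and 12.64 against 12.20, 12.02 and 12.05 (0.62 ± 0.08; limma adjusted p = 0.126).

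Erythroid transcripts were lower in TCE livers in all 3 markers bright enough to test. Hbb, a beta globin, read 13.41, 13.99 and 13.58 in TCE and 14.30, 14.27 and 14.63 in control livers (-0.74 ± 0.19; limma adjusted p = 0.229). Slc4a1, the band 3 anion exchanger of red cells, read 4.80, 4.78 and 4.59 against 5.97, 5.48 and 5.92 (-1.06 ± 0.15; limma adjusted p = 0.126). Alas2, which starts heme synthesis in red cell precursors, read 5.54, 7.03 and 6.18 against 7.44, 7.18 and 8.12 (-1.33 ± 0.45). The groups did not overlap for any of the 3, although Alas2 of TCE replicate 2 came close to the controls. Of the 8 erythroid markers on the array Klf1 and Add2 sat at the lowest value throughout, and the summed levels were 34.6 to 36.7 in TCE and 38.0 to 39.8 in control livers. How much blood each liver piece held was not tested.

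Neutrophil transcripts were higher for the 2 of 9 markers that could be tested. S100a9 read 7.91, 8.01 and 7.91 in TCE and 7.30, 7.28 and 6.31 in control livers (0.98 ± 0.29; limma adjusted p = 0.265). Its partner S100a8 read 4.38, 4.92 and 6.44 against 3.60, 3.73 and 4.46, with overlapping groups (1.32 ± 0.58). Camp, Fcnb and Np4 sat at the lowest value on all 6 arrays. Jchain, which joins antibody chains in plasma cells, read 6.71, 7.35 and 6.55 against 6.10, 6.35 and 6.01 (0.72 ± 0.23), while the B cell markers Cd79b, Ms4a1 and Mzb1 sat at the lowest value. Of the 3 B and plasma cell markers tested, Jchain was the 1 higher and 2 were lower, with a list median of -0.142. With 1 array left out, 0 to 1 were higher and 0 to 1 lower at an unadjusted p under 0.05.

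Regulatory genes showed single differences rather than a common one. Among 42 hepatic transcription factors and nuclear receptors 5 were higher and 2 lower at an unadjusted p under 0.05. The balance turned to 2 higher and 4 lower without liver control replicate 1. It was 3 and 3 without liver TCE replicate 2, 3 and 1 with TCE replicate 1 left out, 3 and 2 without control replicate 2 and 5 and 4 without control replicate 3. Hnf4a, a master factor of hepatocytes, read 13.62, 13.48 and 13.32 in TCE and 12.91, 13.10 and 13.21 in control livers (0.40 ± 0.12), but 2 other probe sets gave -0.45 and -0.41. Ppard, the receptor PPAR-delta, read 6.45, 6.59 and 6.06 against 7.56, 7.21 and 6.98 (-0.88 ± 0.21). Nr1i3, the xenobiotic receptor CAR, differed by -0.27 ± 0.10. Of 21 glucocorticoid-responsive genes 3 were higher and 1 lower at that threshold, against 8.81% and 5.84% of all genes. With 1 array left out 1 to 2 were higher and 1 to 2 lower. The list's median was -0.116, and 0.020 without liver control replicate 1. Its lower gene was Fkbp5, a glucocorticoid-induced cochaperone, at 7.32, 7.46 and 7.19 against 8.34, 7.71 and 8.27 (-0.78 ± 0.19). The higher ones included Mt1, above, and Mertk (0.34 ± 0.12, with -0.50 from another probe set).

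Immediate early genes had a median of 0.177 over 28 members, with 1 higher and 0 lower at the threshold (1 to 2 higher and 0 to 1 lower with 1 array left out). By array the medians were -0.04, 0.09 and 0.33 in TCE livers, and without liver TCE replicate 3 the list's median was 0.011. The gene at the threshold was Rgs2, a brake on G protein signalling, at 4.73, 4.95 and 4.74 in TCE and 2.86, 3.54 and 3.89 in control livers (1.37 ± 0.27; limma adjusted p = 0.177). Cell cycle genes were higher for 34 of 43, with a median of 0.234. At an unadjusted p under 0.05, 6 were higher and 1 lower, with the higher count at 2, 3 and 11 when TCE replicates 1, 2 and 3 were left out in turn, and the lower count at 0 to 1. Ccnd2, a D-type cyclin, read 7.62, 7.79 and 7.58 against 6.67, 7.08 and 7.18 (0.68 ± 0.15). Cdk4, its kinase partner, differed by -0.35 ± 0.10, and Mki67, a mark of cycling cells, was dim, at 4.76, 4.66 and 3.97 against 3.40, 3.57 and 3.35. Solute carriers of hepatocytes held 5 higher and 5 lower of 52, and 4 to 6 higher and 3 to 8 lower with 1 array left out (3 lower with TCE replicate 1 left out and 8 with TCE replicate 2 left out). Slc13a3, a dicarboxylate transporter, differed by 0.65 ± 0.11, and Slc17a1, a urate and phosphate carrier, by -0.53 ± 0.09.

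Liver and renal cortex of the same rats were set against each other by testing the liver difference minus the kidney difference over all 12 arrays. Limma called 57 of 10652 genes at an adjusted p of 0.05 (0.535%). Of these, 34 were lower in TCE liver and higher in TCE kidney, 17 were the reverse, and 6 had the same sign in both tissues. A call for a large gap between the tissues favours opposite signs, so this split partly follows from the choice. The share of opposite signs over all genes was not counted. In renal cortex alone 1566 of 10563 genes (14.8%) had an unadjusted p under 0.05 and 0 an adjusted p under 0.05. Phaf1, an autophagy-linked protein, had the smallest p outside the clock. It read 4.18, 4.16 and 4.64 in TCE and 5.88, 5.62 and 5.84 in control livers, and 4.95, 5.07 and 4.47 against 4.04, 3.74 and 3.52 in kidney. The liver minus kidney effect was -2.52 ± 0.28 (limma adjusted p = 0.0142).

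Tagln, which bundles actin in smooth muscle, differed by 1.22 in liver and -0.14 in kidney, a difference in effect of 1.36 with the same adjusted p. Magt1, a magnesium transporter and glycosylation factor, read 9.76, 9.95 and 10.10 in TCE and 10.68, 10.87 and 10.75 in control livers, and its kidney difference was 0.47. For Msra the liver difference of -1.07 met 0.52 in kidney. Pdk1 was lower in TCE liver and higher by 0.82 in TCE kidney, with a limma adjusted p of 0.02 for the difference, whereas Pdk4 was lower in both, by -0.86 and -1.02. Mt1 differed by 0.32 and Hsd17b2 by 1.15 in kidney, and neither gene's effects differed between tissues past the threshold. The count of 57 leaned on single arrays of either tissue. It was 0 without kidney TCE replicate 1, 2 without kidney control replicate 1, 18 without kidney control replicate 3, 32 without kidney TCE replicate 3 and 108 without kidney TCE replicate 2. Leaving out a liver array gave 28 to 37 genes, except 93 without liver TCE replicate 3. With the Gapdh gap as a covariate over the 12 arrays the count was 0.

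**Figure D5:**
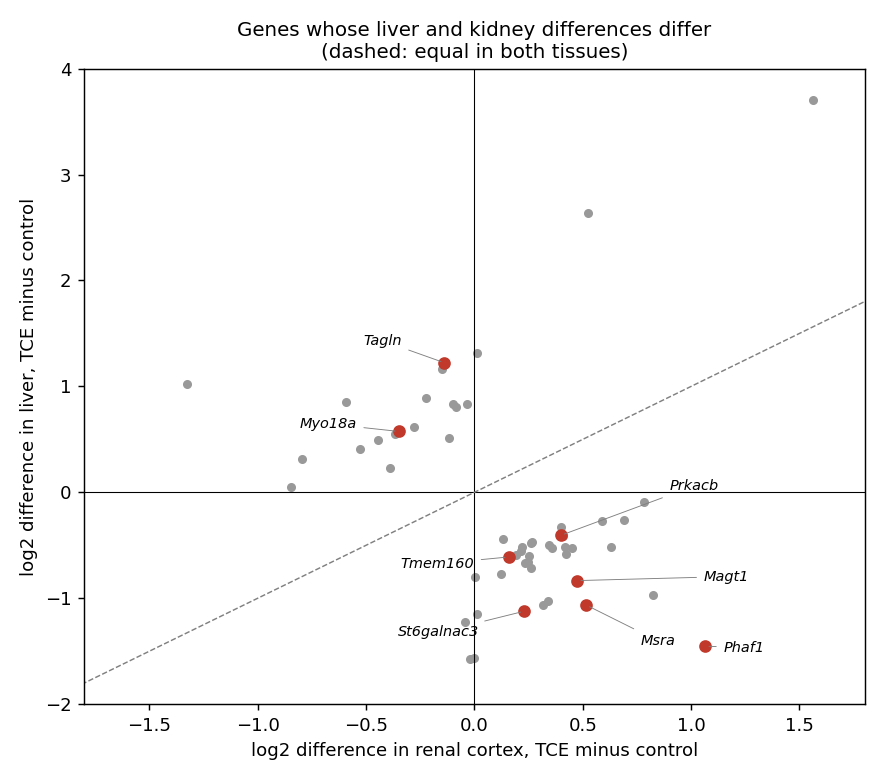
Log2 difference in liver against that in renal cortex (TCE minus control) for the 57 genes whose differences differed between tissues at limma's adjusted p of 0.05. Red points are the 8 with the smallest p outside clock genes. Of the 57 genes, 34 were negative in liver and positive in kidney, at lower right, and calling genes by the difference favours opposite signs. Among these 34, Klk1c4 (-0.203 in liver and 3.655 in kidney) lies beyond the right edge and is not shown.

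The Gapdh gap moved with the treatment in liver, so the fit was repeated with that gap as a covariate. In it the median SE rose from 0.132 to 0.308, and 627 genes had an unadjusted p under 0.05 in place of 1546. Of those 1546 genes 86.9% kept the sign of their difference and 149 (9.64%) kept an unadjusted p under 0.05. Over all genes 62.5% kept their sign. With the Actb gap in its place the count was 1329. Among the genes above, the value with the Gapdh gap was 0.58 ± 0.68 for Mt1, 2.81 ± 2.06 for Mt2A, 1.34 ± 0.92 for Hsd17b2 and 2.85 ± 0.96 for Serpina7.

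The same fit gave -2.86 ± 1.15 for Sult2a6, -0.32 ± 0.32 for Pdk1, -0.67 ± 0.28 for Pdk2 and -0.72 ± 0.65 for Pdk4. Meox2 stood at -0.20 ± 0.71 and Msra at -0.27 ± 0.21, well short of their values without the covariate. Slc4a1 (-1.38 ± 0.39), Cyp2c22 (-0.64 ± 0.24), Slc39a4 (-0.66 ± 0.24) and Gldc (-0.92 ± 0.26) were at least as far below 0 as without it. Pprc1 (-0.05), Rbm3 (-0.12), Mki67 (-0.05), Hnf4a (-0.03), Cd36 (0.27), Crp (0.02) and Cd14 (0.15) had the opposite sign with the covariate. List medians with the covariate were 0.369 for stellate and fibroblast genes, 0.008 for the respiratory chain, -0.006 for the fasting and insulin response, -0.036 for the cell cycle and 0.216 for the proteasome. Where the 2 groups do not overlap in the gap, the gap and the treatment cannot be told apart.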

How the data were processed

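Total RNA from liver and renal cortex was hybridised to GeneChip rat genome arrays, per the labels' protocols. The authors deposited a table of 31099 probe sets by 12 arrays; its values run from a shared floor of 2.17 to 16.5 and were taken as log2 from that range. Upstream the submitters' processing notes name the packages affy and limma, with versions, background correction and normalization not given in the sources here.

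GEO's platform annotation gave a single gene symbol to 20826 probe sets (14217 genes), several symbols to 436 and no symbol to 9780. The 57 controls of the array stayed out of the tests. A gene took its probe set with the highest mean over 12 arrays and was tested above the 40th percentile (2.447 in liver). The deposited log2 values were fitted with lmFit and eBayes of limma 3.58.1 (R 4.3.3), two-sided; p-values were adjusted over all genes of a fit (Benjamini-Hochberg, threshold 0.05), and the fit was tested on simulated data. The difference between tissues used all 12 arrays as independent, although the same rats gave both tissues. Single control values were compared by exact permutation (scipy 1.17.1). The number of arrays limits the precision.

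Members of the comparison, the 49 gene lists and the tests were chosen with earlier results of these data known. The text names the 15 genes in each direction described in the report, up to 3 members of each list with the smallest p among those under 0.05, a preset of enzymes, and 8 genes of the difference between tissues. Other list members, such as Isg15, Irf7, Ppargc1a, Igfbp1, Pygl, Gcgr, Mtf1, S100a8 and Acta2, were named after their values were seen. Alternatives were filters, probe set choices, normalization again, variance settings, array weights, covariates, all 12 arrays, a replicate block and leaving out each array; the covariate in the fit over both tissues, and leaving out 2 liver arrays together, were added after seeing the data.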

Additional observations from a re-analysis of the deposited data

Results flagged for a closer look

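For 22 of the genes named, the liver and kidney differences (each TCE minus control) differed at an adjusted p of 0.05. The test was limma's of the difference itself, adjusted over all genes, and it called 57 of 10652 (0.535%). Phaf1, St6galnac3, Tagln, Magt1, Msra, Myo18a, Prkacb and Tmem160 had been named for a small p in this same test. The others were named for their liver differences, so the count of 22 largely follows from the choice of genes. The test called 0 genes without kidney TCE replicate 1, and 0 with the Gapdh gap as a covariate. Values are the liver effect minus the kidney effect on the log2 scale. Above 0 were the clock genes Dbp (2.14) and Per3 (2.11), the proliferation mark Mki67 (2.35), Tagln (1.36), Dlgap4 (1.12), Mafg (0.93) and the unconventional myosin Myo18a (0.92). Below 0 were Phaf1 (-2.52), Pdk1 (-1.79), Msra (-1.58), Slc4a1 (-1.38), the nucleotide sugar transporter Slc35a3 (-1.37), the sialyltransferase St6galnac3 (-1.35), Magt1 (-1.31), the malic enzyme Me1 (-1.18), LOC100909782 (-1.16), Ndufb8 of complex I (-1.0), Slc17a1 (-0.98), the protein kinase A subunit Prkacb (-0.81), Uqcrc2 of complex III (-0.79), Tmem160 (-0.77) and Qdpr (-0.74).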

How the results depend on the processing

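With 3 arrays a group, limma called 0 genes at an adjusted p of 0.05, but 17 with no filter, 182 with all 12 arrays in 1 fit (43 of the 134 named genes among them) and 0 to 1 when 1 liver array was left out (1 without liver TCE replicate 3). The unadjusted count of 1546 became 2564 over all probe sets and 627 with the Gapdh gap. With 5 arrays it ranged from 1206 to 1527, and without liver control replicate 1 and liver TCE replicate 2 together, an alternative chosen after seeing the data, it was 1065. The count without overlap, 2167, became 3571 over all probe sets and 2976 to 3471 with 5 arrays, where fewer values need to lie apart. The Gapdh gap difference of 0.68 ranged from 0.57 to 0.82. The liver minus kidney count of 57 ranged from 0 to 108 when 1 array was left out, and was 0 with the Gapdh gap; the causes were not tested. Of 2654 genes with several probe sets above the filter, 49.7% had all of one sign.

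Whether equal replicate numbers pair the arrays cannot be settled here, because unlike numbers were not compared. Deviations from the group mean of same-numbered TCE and control livers correlated at -0.005, -0.057 and -0.078. Same-numbered liver and kidney arrays correlated at 0.006, -0.007 and 0.064 in TCE and 0.058, 0.048 and 0.08 in control rats, and the labels do not say whether equal numbers mark the same rat. With the replicate block 0 genes passed, 1251 had an unadjusted p under 0.05, and the tissue difference gave 80 genes.

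With the Gapdh gap as a covariate 14 of 134 named genes turned sign: Pprc1 (-0.05), Cd36 (0.27), Rbm3 (-0.12), Crp (0.02), Cd14 (0.15), Mki67 (-0.05), Tcf7l2 (-0.00), Hnf4a (-0.03), Cela1 (-0.00), Cyp2e1 (0.25), Cyp4a1 (-1.17), Cyp1a2 (0.05), Nqo1 (1.02) and Alb (-0.08). With the Actb gap, Cyp2e1 (0.00), Cyp4a1 (-0.43) and Cyp7a1 (-0.04) turned. Averaging all probe sets of a gene turned Masp1 (-0.07), Mertk (-0.08), Hnf4a (-0.15) and Glul (-0.14). Quantile normalization again turned Cyp2e1 (0.01), and centring each array or array weights turned Alb (-0.00). Leaving out 1 array, Cyp2e1 ranged from -0.09 to 0.03, Aldh2 from -0.02 to 0.12, Cyp4a1 from -0.19 to 0.36, Hmox1 from -0.13 to 0.34 and Alb from -0.02 to 0.03. No other of the 134 genes turned under these alternatives. Of 9 genes named after their values were seen, Gcgr (0.03), Irf7 (-0.19) and Mtf1 (-0.08) turned with the Gapdh gap and Igfbp1 (0.30) without liver control replicate 1.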

Other observations

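Lists not described above gave single genes of interest. Of 24 apolipoprotein and lipoprotein genes 2 were lower and 0 higher at an unadjusted p under 0.05, and 2 to 3 lower with 1 array left out. Apon, an apolipoprotein of rodent plasma, read 12.69, 12.76 and 12.73 in TCE and 13.24, 13.16 and 13.18 in control livers (-0.47 ± 0.06; limma adjusted p = 0.126). Tm6sf2, which loads lipid onto very low density lipoprotein, read 9.86, 9.85 and 9.94 against 10.53, 10.44 and 10.32 (-0.55 ± 0.08). Both were tightly grouped and apart. Asgr2, a subunit of the asialoglycoprotein receptor that clears desialylated plasma proteins, read 11.04, 11.05 and 11.29 against 11.85, 11.65 and 11.69 (-0.60 ± 0.10).

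Genes of heme synthesis and iron handling had 0 of 26 at an unadjusted p under 0.05, with a median of 0.041, beside the lower erythroid markers, and 0 to 2 were higher with 1 array left out. Targets of p53 and apoptosis genes had 0 higher and 1 lower of 25, the lower one being Sesn1, and 0 to 1 higher and 0 to 2 lower with 1 array left out. Bile duct markers gave a median of -0.010 over 10 genes, and 0.162 without liver control replicate 1. Kidney tubule markers had 1 of 10 above the 60th percentile of liver probe sets.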
